A study of Mus musculus with 152 samples.

Results

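Mouse liver RNA was examined here for 10 genes whose proteins bring fatty acids into cells or carry them once inside: Cd36, Slc27a2, Slc27a4, Lpl, Vldlr, Fabp1, Fabp2, Fabp4, Fabp5 and Fabp7. The genes were taken by name, for what their proteins do, out of 54532 in the deposited tables, with earlier results of these data known. All 10 passed the filter on low values in every week. C57BL/6J mice aged 8 weeks were put on a purified control diet or on LIDPAD, a diet that induces non-alcoholic fatty liver disease (NAFLD), and whole liver was sequenced after 1, 4, 8, 12, 16, 32 or 48 weeks of feeding. The labels name no genotype, drug or allele in either group, and no sex, animal or sampling time.

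The 152 listed samples fell into blocks of 4 columns that were more alike than columns of different blocks. Each block was counted as 1 library, numbered in column order. This left 38 libraries: 2 control and 2 LIDPAD at each of weeks 1, 4, 8 and 12, 3 and 3 at week 16, 4 and 5 at week 32, and 3 and 4 at week 48. Depth ran from 10.9 to 53.8 M reads (M, 1000000) per library, with a median of 29.0 M. Nothing in the labels says that libraries came from separate mice, and a p-value here reads only the variation among libraries, some or all of which could be technical. Where LIDPAD livers or control livers are given with values, the libraries of the group are meant, not a count of mice. Values are FPM, the authors' reads per 1000000 after division by a size factor. A gene was called where its difference within a week had an adjusted p under 0.05 (limma on log2(FPM + 0.5), Benjamini-Hochberg over all genes tested). Control library 3 of week 48 stood apart from the other controls of its week. The 2 control libraries of week 4 differed widely from each other, and from these alone neither can be called the unusual one. The LIDPAD libraries of week 32 also differed widely from each other, except libraries 4 and 5, the most alike pair within any group. Results that rest on them are given with and without them. In weeks 1 to 12, leaving out a library leaves 1 in its group, and the fit then takes all its spread from the other group. Values from such fits show how far 1 library moves a result, and a small p there is no support for a difference.

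Fatty acids reach the liver either free, bound to albumin, or inside lipoproteins. CD36 and the fatty acid transport proteins, the SLC27 family, take up free fatty acids at the cell surface, and several SLC27 proteins also join them to coenzyme A. Lipoprotein lipase frees fatty acids from circulating triglyceride and is little made by the healthy adult hepatocyte. The fatty acid-binding proteins (FABPs) hold fatty acids in the cytosol: FABP1 is the main form of hepatocytes and FABP2 of enterocytes, FABP4 is abundant in adipocytes and macrophages, FABP5 in epidermis, and FABP7 in the brain.

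In control livers the genes spanned a wide range of levels. Per kilobase of the longest protein-coding transcript, the mean over the 7 weeks was 3029 FPM for Fabp1, 169.9 for Slc27a2, 89.2 for Fabp5 and 41.7 for Fabp2. It was 13.2 for Cd36, 7.07 for Lpl, 4.83 for Fabp4, 4.60 for Slc27a4, 1.51 for Fabp7 and 0.393 for Vldlr. The weekly means of Fabp5 and Fabp2 overlapped, as did those of Fabp2 and Cd36, Cd36 and Lpl, Lpl and Fabp4, and Fabp4 and Slc27a4. Those of Fabp1 and Slc27a2, Slc27a2 and Fabp5, Slc27a4 and Fabp7, and Fabp7 and Vldlr did not. Control library 3 of week 48 had 83.9, 53.4 and 41.1 FPM per kilobase of Cd36, Lpl and Fabp4. The other controls of that week had 12.6 and 13.8, 2.45 and 4.57, and 3.26 and 1.73. The overlaps of Cd36 with Fabp2 and of Fabp4 with Slc27a4 rest on that library, as does the place of Fabp4 above Slc27a4. On LIDPAD the order was Fabp1 at 2770.0, Slc27a2 at 217, Fabp2 at 100.2, Cd36 at 56.4, Lpl at 23.0, Fabp5 at 13.2 and Fabp4 at 12.0 FPM per kilobase. Fabp5 thus dropped from below Slc27a2 to between Lpl and Fabp4. The weekly means on LIDPAD overlapped among these 3, at 7.83 to 31.0 for Fabp5, 6.52 to 67.7 for Lpl and 3.51 to 31.5 for Fabp4.

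Cd36, Lpl, Fabp2 and Fabp4 were called higher on LIDPAD in 5, 4, 5 and 3 of the 7 weeks, and Fabp5 was called lower in 5. Because the genes were chosen with earlier results known, their counts and median beside those of all genes are only descriptive. Of the 10 genes, 1 was called higher and 1 lower at week 1, when 0.726% and 1.27% of all genes tested were called higher and lower. At week 4 the count was again 1 and 1, against 0.121% and 0.166% of all genes. At week 8 it was 4 and 1, against 3.85% and 1.75%. Week 12 had 6 higher and 1 lower, against 8.99% and 6.25%, and week 16 again 6 and 1, with Fabp7 in place of Slc27a2, against 16.3% and 12%. At week 32 the count was 3 and 1, against 18% and 8.82%, close to the share of all genes, and at week 48 it was 2 and 0, against 6.54% and 3.34%. The median log2 change of the 10 genes lay between 0.358 (week 4) and 0.966 (week 16), where the median of all genes was within 0.04 of 0. Rescaling every library to the same total moved the median of all genes to 0.10, 0.19, 0.20, 0.33 and 0.28 at weeks 8 to 48, and 7 of the 10 genes were then called higher at week 8 and 8 at week 16. Under it the calls over all genes went from 2262 higher and 1666 lower to 3958 and 803 at week 16, and from 2559 and 1251 to 4070 and 362 at week 32. Leaving out control library 3 of week 48 raised that week's count to 6, when 37.7% of all genes were called.

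Groups that do not overlap were counted as well, with the same limit. At week 1, 6 of the 10 genes had every LIDPAD library above every control and 1 had it below, against 24.2% and 24.4% of all genes. The counts were 6 and 1 at week 4 (21.3% and 20.9%), 9 and 1 at week 8 (28.3% and 27.1%) and 8 and 1 at week 12 (29.3% and 28.2%). They were 6 and 1 at week 16 (23.5% and 19.7%), 3 and 1 at week 32 (17% and 8.8%) and 3 and 1 at week 48 (14.1% and 10.7%). The gene that lay below was Fabp5 except at week 32, where it was Fabp1.

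**Figure D1:**
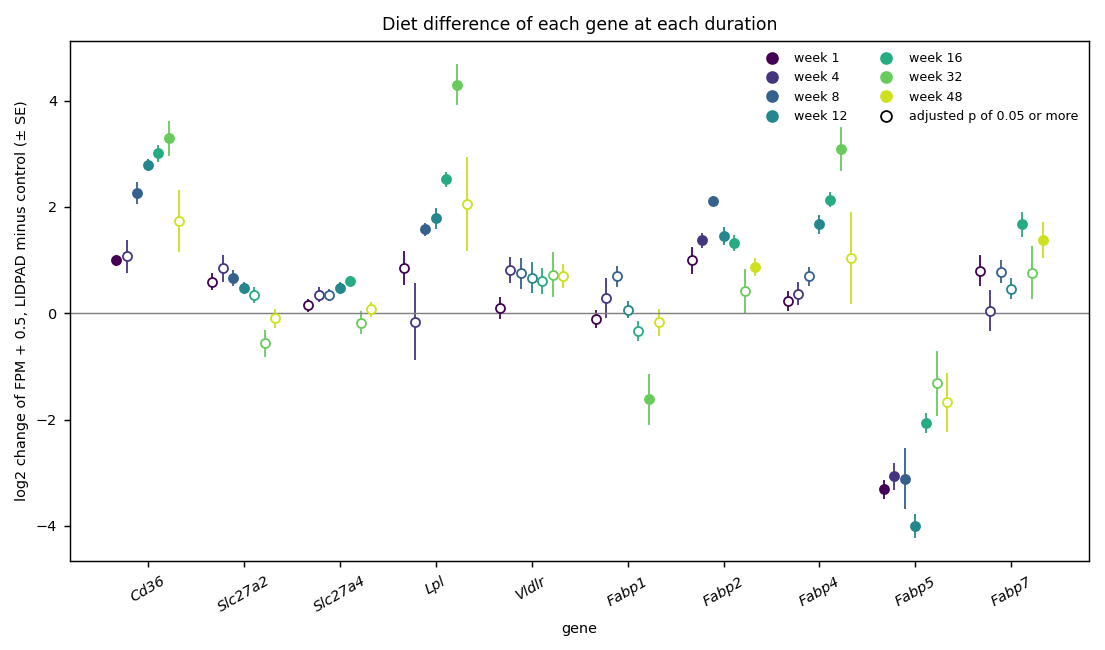
Difference between LIDPAD and control for each gene at each feeding duration, on the log2(FPM + 0.5) scale, with its standard error; filled points have an adjusted p under 0.05. Cd36, Lpl and Fabp4 reach 3.29, 4.30 and 3.09 at week 32, and Fabp5 lies below 0 in every week.

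CD36 is the scavenger receptor that takes up long-chain fatty acids. Its gene (chr5:17781690-17888801, minus strand, GRCm38) was higher on LIDPAD already after 1 week, at 39.2 and 44.1 FPM against 21.3 and 19.9 in the controls. At week 8 the values were 154 and 159 against 40.9 and 25.2, and at week 12 they were 198 and 209.8 against 31.7 and 26.6. No LIDPAD library overlapped a control in any week but week 48. In whole liver, a change in how many cells make an RNA and a change in how much each cell makes cannot be told apart. At week 16 the 3 LIDPAD libraries had 333, 306 and 307 FPM and the 3 control libraries 53.2, 34.1 and 32.1, a 7.93-fold ratio of means. At week 32 they had 189, 375, 203, 294 and 279 against 40.6, 16.9, 15.4 and 43.0. The log2 change was 1.00 ± 0.11 (SE, adjusted p = 0.00814) at week 1, 2.27 ± 0.21 (0.0048) at week 8, 2.79 ± 0.12 (6.03e-06) at week 12, 3.01 ± 0.16 (8.72e-07) at week 16 and 3.29 ± 0.33 (9.42e-05) at week 32. Cd36 thus passed the test at 5 durations; the call at week 1 was lost without control library 1 (adjusted p = 0.0953) or control library 2 (0.0847). Week 4 gave 93.9 and 63.1 FPM against 26.9 and 49.4, which did not pass (log2 change 1.07 ± 0.32, adjusted p = 0.3); the fit with control library 1 alone gave 1.5 (adjusted p = 0.0273). At week 48 the LIDPAD livers had 287, 287, 263 and 275 FPM, and control library 3, at 285, lay among them while control libraries 1 and 2 had 43.0 and 46.9. With that library the log2 change was 1.73 ± 0.59 (adjusted p = 0.101), and without it 2.62 (adjusted p = 2.69e-08).

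**Figure D2:**
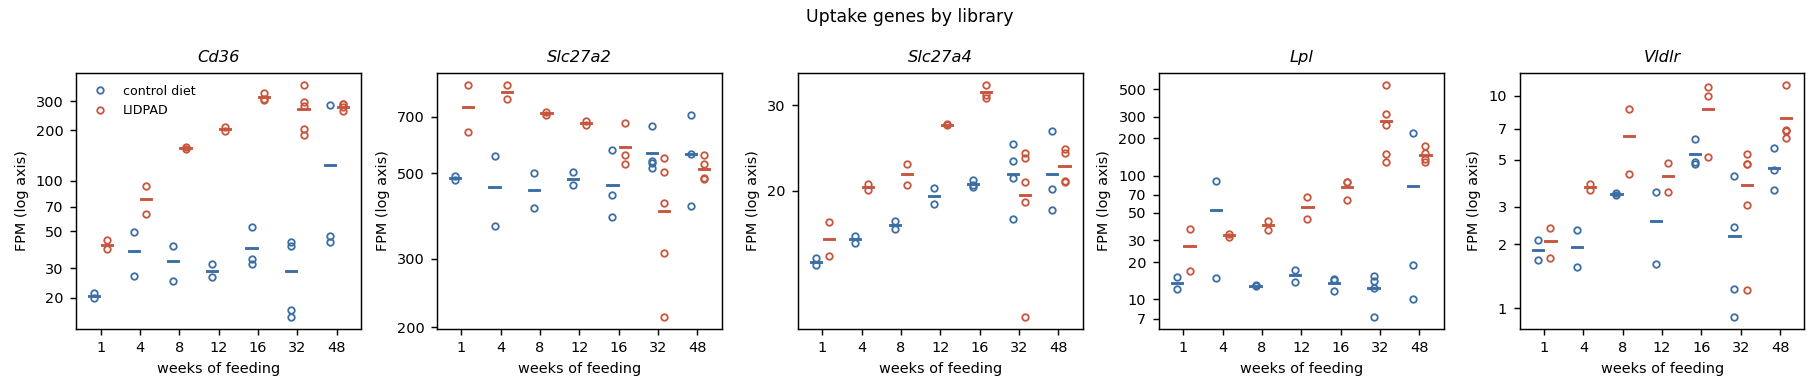
FPM (log axis) of Cd36, Slc27a2, Slc27a4, Lpl and Vldlr in each of the 38 libraries by weeks of feeding; circles are libraries, and bars are group means. The week 48 control circle at 285 FPM of Cd36 and 219.6 FPM of Lpl lies at the level of the LIDPAD livers.

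Slc27a2 encodes the main fatty acid transport protein of hepatocytes, which also activates very long-chain fatty acids. It was the more abundant of the 2 transport genes, with 366 to 706 FPM over the control libraries. The LIDPAD livers had 707 and 720.2 FPM at week 8 and 665 and 680.2 at week 12, above controls of 405 and 501 and 465 and 503. These were its 2 calls (log2 change 0.66 ± 0.14, adjusted p = 0.0493, and 0.48 ± 0.12, adjusted p = 0.028), and leaving out either LIDPAD library of the week ended each, with adjusted p from 0.271 to 0.384. The first was also lost with edgeR (0.0554) and both without a filter on low values (0.0896 and 0.0811). It was also above the controls without overlap at weeks 1 and 4, at 845 and 639 and 776 and 845 FPM, which did not pass (adjusted p = 0.127 and 0.311). The adjusted p went under the threshold at week 1 without LIDPAD library 1 (0.048) or 2 (0.00124), at week 4 without control library 1 (0.0102) and at week 16 without control library 1 (0.0155). At week 32 LIDPAD libraries had 212, 419, 311, 545 and 504 FPM and controls 530.4, 516, 539 and 663 (log2 change -0.57 ± 0.26, adjusted p = 0.131).

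Slc27a4, a transport protein better known from the small intestine, varied little. Its libraries ranged over 14.0 to 26.6 FPM on control diet and 11.0 to 33.1 on LIDPAD. At week 16 the LIDPAD livers had 31.6, 33.1 and 31.0 FPM and the controls 20.4, 20.6 and 21.1, a small gap with almost no spread (log2 change 0.61 ± 0.09, adjusted p = 6.98e-04). It was also called at week 12 (0.48 ± 0.11, adjusted p = 0.0245), a call lost without LIDPAD library 1 (0.159) or library 2 (0.212), or without a filter on low values (0.0507).

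Lipoprotein lipase (Lpl, chr8:68880491-68907448, plus strand) had the largest called log2 change of the 10 genes, at week 32. Control livers had 14.3, 11.8 and 14.5 FPM at week 16 and 7.23, 15.4, 14.2 and 12.5 at week 32. LIDPAD livers had 36.1 and 43.4 FPM at week 8, 44.4 and 67.3 at week 12, 89.1, 64.0 and 88.7 at week 16 and 316, 542, 257, 148 and 129 at week 32. None of these overlapped its controls. The log2 change was 1.58 ± 0.12 (adjusted p = 0.00276) at week 8, 1.78 ± 0.20 (7.50e-04) at week 12, 2.52 ± 0.14 (1.33e-06) at week 16 and 4.30 ± 0.38 (5.80e-05) at week 32, when the means stood 22.6-fold apart. Week 1 did not pass, with 16.8 and 36.8 FPM against 12.2 and 15.2 (log2 change 0.85 ± 0.32, adjusted p = 0.261), and the fit with LIDPAD library 2 alone gave another value (1.41, 8.56e-05). At week 4 the direction depended on the library: control library 2 had 90.4 FPM, control library 1 15.0 and the LIDPAD libraries 34.0 and 32.0. With control library 1 alone the week 4 change was 1.11 and with control library 2 alone -1.44; both had an adjusted p under the threshold (0.0151 and 0.00393), since neither fit reads any spread among controls. At week 48 the controls had 10.1, 18.8 and 219.6 FPM against 174, 154, 135 and 129 on LIDPAD. The change was 2.05 ± 0.89 (adjusted p = 0.183) with control library 3 and 3.37 (adjusted p = 1.20e-06) without it.

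Vldlr, the very low-density lipoprotein receptor, was scarce and passed the test in no week, although it did at weeks 16 and 48 with every library rescaled to the same total (adjusted p = 0.0338 and 0.0211). It ranged over 0.909 to 6.25 FPM on control diet and 1.22 to 11.3 on LIDPAD, with log2 changes from 0.09 (week 1) to 0.81 (week 4). The smallest adjusted p was 0.0872, at week 48, where the 4 LIDPAD libraries had 6.88, 11.3, 6.83 and 6.36 FPM and the 3 controls 5.66, 4.46 and 3.58 without overlap. At week 12 the fit with control library 1 alone, which reads no spread among controls, gave 1.13 (adjusted p = 0.00538). At week 16 Vldlr passed without LIDPAD library 2 (0.93, 0.00356).

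Fabp1 made up most of the FABP message. Shares are of the summed FPM per kilobase of the longest protein-coding transcript over the 5 FABP genes. That of Fabp1 was 95.0 ± 1.14% in control libraries and 96.4 ± 0.354% on LIDPAD at week 1 (SD, n = 2 each). At week 16 it was 97.3 ± 0.206% and 94.4 ± 0.319% (SD, n = 3 each). At week 16 the LIDPAD livers lay below the controls without overlap, and at week 1 above them; these shares were not tested. Up to week 16 its log2 changes, from -0.34 (week 16) to 0.69 (week 8), did not pass; the fit of week 8 with control library 1 alone gave an adjusted p under the threshold (0.94, adjusted p = 0.00383). At week 32 the controls had 2108, 2028, 2285 and 2695 FPM and the LIDPAD libraries 322, 389.6, 642, 1652 and 1614. LIDPAD libraries 1 to 3 were far below every control, and libraries 4 and 5 less so, and Fabp1 took 89.7 ± 6.43% (SD, n = 5) of the FABP message there. The week 32 change of -1.62 ± 0.48 (adjusted p = 0.0273) was the 1 call of Fabp1. It was lost in 6 of the 9 fits that left out a library: any of control libraries 1 to 4, or LIDPAD library 2 or 3, with adjusted p from 0.0545 to 0.0684. It was also lost in edgeR on whole reads (0.0561) and without a filter on low values (0.056).

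**Figure D3:**
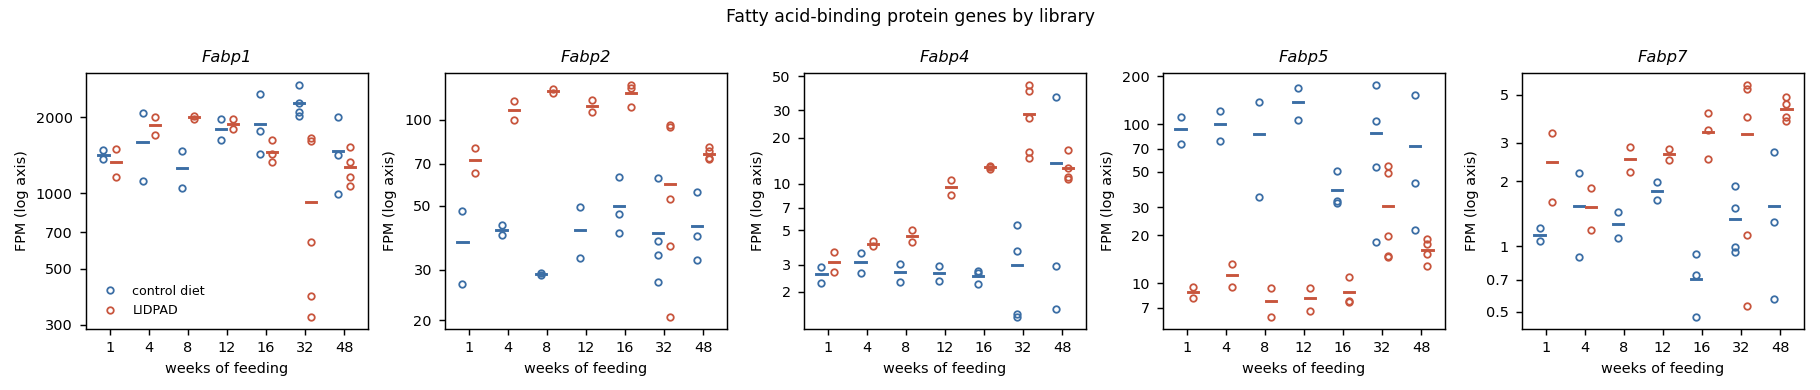
FPM (log axis) of the 5 FABP genes in each of the 38 libraries by weeks of feeding; circles are libraries, and bars are group means. Fabp5 on LIDPAD stays under 14 FPM through week 16, while the lowest control has 32.0, and Fabp1 on LIDPAD spreads from 322 to 1652 FPM at week 32.

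Upstream sequences are given for the 3 genes with a match outside annotated exons, Fabp1, Fabp7 and Cd36, and for Fabp2, a gene called higher in 5 weeks that has none; they were chosen after the matches were seen. They come from RefSeq for GRCm38.p6, are written on the strand of the gene and leave out annotated exons. Capitals mark matches on either strand to a nuclear receptor core hexamer, AGGTCA, to that hexamer with a leading T, TAGGTCA, or to a direct repeat of AGGNCA with 1 spacer base (N, any base). Fabp1 (chr6:71199629-71199826) holds the direct repeat on the minus strand, Fabp7 (chr10:57784673-57784880) TAGGTCA, Cd36 (chr5:17835897-17836146, minus strand) the hexamer alone, and Fabp2 (chr3:122894822-122895071) holds neither. Slc27a2 holds the hexamer within an annotated exon, and Slc27a4 and Vldlr hold no match.
Fabp1: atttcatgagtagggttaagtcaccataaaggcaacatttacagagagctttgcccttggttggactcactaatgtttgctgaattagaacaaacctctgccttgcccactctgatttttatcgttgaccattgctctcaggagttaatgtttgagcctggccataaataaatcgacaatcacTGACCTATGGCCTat
Fabp7: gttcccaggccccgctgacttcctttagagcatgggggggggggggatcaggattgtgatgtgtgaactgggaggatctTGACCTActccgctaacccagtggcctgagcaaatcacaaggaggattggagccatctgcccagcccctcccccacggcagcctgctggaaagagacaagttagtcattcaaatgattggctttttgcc
Cd36: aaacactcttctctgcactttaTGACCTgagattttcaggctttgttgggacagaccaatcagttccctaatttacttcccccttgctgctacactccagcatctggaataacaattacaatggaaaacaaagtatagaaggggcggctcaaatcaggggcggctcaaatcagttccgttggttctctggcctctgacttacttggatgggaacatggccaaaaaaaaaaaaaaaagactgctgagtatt
Fabp2: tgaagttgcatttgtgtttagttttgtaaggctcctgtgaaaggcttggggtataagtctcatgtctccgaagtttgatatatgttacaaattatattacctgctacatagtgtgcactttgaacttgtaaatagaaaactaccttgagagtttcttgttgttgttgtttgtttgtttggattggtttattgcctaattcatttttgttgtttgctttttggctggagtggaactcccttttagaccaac
The direct repeat was in 1 of the 8 promoters of these genes and in 0.338% of 32851 promoters, the hexamer, which the repeat contains here, in 4 of 8 and 14.0%, and TAGGTCA in 2 of 8 and 2.23%. The E-box CACGTG (6.02% of all promoters) and the sterol element TCACNCCAC (1.05%) were in 0 of 8. A match is a run of letters, and a window without a match says only that these letters are not in it.

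Fabp2, the intestinal form, was called higher on LIDPAD from week 4 to week 16 and at week 48. At week 8 LIDPAD livers had 124 and 128 FPM and controls 29.2 and 28.6, a 4.35-fold ratio of means with almost no spread. At week 16 they had 111, 132 and 129 against 62.9, 40.3 and 46.8. The groups did not overlap at weeks 1 to 16 or at week 48, where LIDPAD livers had 73.3, 80.4, 72.8 and 77.6 FPM and controls 39.3, 32.4 and 55.9. The log2 change was 1.37 ± 0.15 (adjusted p = 0.0307) at week 4, 2.10 ± 0.09 (6.19e-04) at week 8, 1.45 ± 0.18 (0.00114) at week 12, 1.32 ± 0.15 (9.00e-05) at week 16 and 0.87 ± 0.17 (0.0217) at week 48. At week 1 the adjusted p was under the threshold without LIDPAD library 1 (0.0475) or 2 (0.0138), but not with both (0.116). The week 4 call was lost without LIDPAD library 1 (0.121) or 2 (0.0637). That of week 48 was kept only without control library 3, and the other 6 fits gave adjusted p from 0.0534 to 0.0721. Week 32 did not pass (log2 change 0.41 ± 0.42, adjusted p = 0.515), with 20.5, 36.3 and 52.7 FPM in LIDPAD libraries 1 to 3 and 93.9 and 95.5 in libraries 4 and 5. Of the 10 enterocyte markers, Sis and Lct stayed at or under 0.106 and 0.194 FPM in all 38 libraries. Other markers of the list were higher on LIDPAD. Of 2 tested, 1, 2, 1 and 1 were called higher at weeks 8, 12, 16 and 32. Of all genes tested, 3.85%, 8.99%, 16.3% and 18% were. The 10 markers summed to 321 and 326 FPM on LIDPAD at week 12 and to 78.2 and 66.2 on control diet. Their part in the Fabp2 difference was not tested. Vil1, of intestinal and other epithelia, stood at 15.2 FPM in control library 3 of week 48 and 14.2 in LIDPAD library 3 of week 32, and at 1.51 or less elsewhere. Fabp6, the ileal form, stood at 13.5 and 2.72 FPM in the same libraries and at 0.109 or less elsewhere.

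Fabp5 and Fabp4 are neighbours on chromosome 3 (Fabp5 at chr3:10012548-10016607 on the plus strand, Fabp4 at chr3:10204088-10208576 on the minus strand), and they were called in opposite directions at weeks 12 and 16. Their first 120 coding bases are shown because reads of related genes can be confused; capitals mark bases that differ between the pair or have no partner in their alignment.
Fabp4: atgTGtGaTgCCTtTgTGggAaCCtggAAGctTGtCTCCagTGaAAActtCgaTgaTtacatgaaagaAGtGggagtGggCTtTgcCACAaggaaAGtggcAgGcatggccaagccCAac
Fabp5: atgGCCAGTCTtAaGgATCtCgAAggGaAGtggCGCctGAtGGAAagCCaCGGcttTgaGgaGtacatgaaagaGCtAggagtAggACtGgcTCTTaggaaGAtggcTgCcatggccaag
The coding sequences were 60.6% identical, with a longest shared run of 12 bases. Between them lie Pmp2 and Fabp9, both listed at 0 in every library, and beyond Fabp4 lies Fabp12, at or under 0.2 FPM. The pseudogene Fabp5l2 stayed at or under 0.255 FPM.

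Fabp5, abundant among the FABP genes in control livers after Fabp1, fell from the first week. LIDPAD livers had 8.07 and 9.46 FPM at week 1 and controls 111 and 75.4, so the control mean was 10.6-fold higher. At week 12 they had 6.69 and 9.33 against 169.6 and 106, and at week 16 7.76, 7.56 and 10.9 against 50.6, 32.9 and 32.0. The groups did not overlap in weeks 1 to 16, and the LIDPAD libraries of those weeks stayed within 6.12 to 13.1 FPM. The log2 change was -3.31 ± 0.18 (adjusted p = 6.97e-04) at week 1, -3.07 ± 0.25 (0.0227) at week 4, -3.11 ± 0.57 (0.0319) at week 8, -4.00 ± 0.22 (1.67e-05) at week 12 and -2.06 ± 0.19 (2.78e-05) at week 16. The call of week 8, where the controls were 138 and 34.5 FPM, was lost without LIDPAD library 1 (0.134) or 2 (0.106). Weeks 32 and 48 did not pass (log2 change -1.32 ± 0.62, adjusted p = 0.14, and -1.68 ± 0.56, 0.0955). At week 32 the control libraries ran from 18.2 to 176 FPM and the LIDPAD libraries from 14.5 to 54.6. Week 32 passed without control library 1 (0.0259), and week 48 passed without control library 2 (0.0479) or 3 (0.0238).

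The time of day of sampling is not in the labels. The core clock genes differed by diet: log2 of Arntl over Dbp, which are in opposite phase, differed by -4.29 at week 1, -4.78 at week 4 and -0.815 at week 16 (LIDPAD minus control). Of 12 clock genes, 5 were called higher and 2 lower at week 1, and 0 higher and 4 lower of 11 at week 16. With the libraries rescaled to the same total, these counts were 5 and 2, and 1 and 1. Of all genes tested, 0.726% were called higher and 1.27% lower at week 1, and 16.3% and 12% at week 16. The part of the clock genes in the differences of Fabp5 and the other genes was not tested.

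Fabp4, the adipocyte and macrophage form, was called higher at weeks 12, 16 and 32. Controls stayed between 2.26 and 3.55 FPM through week 16. LIDPAD livers had 8.44 and 10.6 FPM at week 12, 12.8, 13.2 and 12.5 at week 16 and 39.8, 43.9, 26.7, 16.1 and 14.7 at week 32. The log2 change was 1.67 ± 0.19 (adjusted p = 7.91e-04), 2.13 ± 0.14 (3.73e-06) and 3.09 ± 0.42 (4.76e-04), and no LIDPAD library overlapped a control in these weeks. Week 8 did not pass (adjusted p = 0.0823; with control library 1 alone 0.0364). At week 48 control library 3 had 36.8 FPM, above all 4 LIDPAD libraries at 16.6, 12.7, 10.8 and 11.0. The change was 1.03 ± 0.86 (adjusted p = 0.502) with it and 2.31 (adjusted p = 2.26e-05) without. Of the 10 adipocyte markers, Adipoq, Lep, Plin1 and Retn reached at most 0.385, 0.0987, 0.301 and 0.22 FPM over all libraries. Cfd, made by adipocytes and by other cells, ranged over 0.165 to 102 FPM on LIDPAD and 0 to 4.51 on control diet. Of 5 markers tested at week 12, 3 were called higher and 1 lower, when 8.99% and 6.25% of all genes were. At week 16, 3 of 5 were called higher, Cfd and the lipid droplet genes Cidea and Cidec, when 16.3% of all genes were. At week 12 the 10 markers summed to 140 to 164 FPM on LIDPAD and 11.6 to 14.0 on control diet. Their part in the Fabp4 difference was not tested.

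Fabp7, the brain form, was scarce. At week 16 it had 3.43, 2.53 and 4.12 FPM on LIDPAD and 0.919, 0.472 and 0.738 on control diet (log2 change 1.67 ± 0.24, adjusted p = 4.19e-04), without overlap. At week 48 it had 4.55, 4.89, 3.78 and 3.93 against 0.571, 2.72 and 1.30 (1.38 ± 0.33, 0.0405). The week 48 call was lost in 5 of 7 fits that left out a library, without control library 1 or any LIDPAD library, with adjusted p from 0.0837 to 0.113, and with edgeR (0.0807). At week 1 the adjusted p was 0.256, and 0.00864 with LIDPAD library 2 alone.

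At weeks 32 and 48 the pattern of all 10 genes can be seen library by library. The week 32 libraries came in sets that differ in how their reads are spread over the 4 columns: control libraries 1 to 3 with LIDPAD libraries 1 to 3, and control library 4 with LIDPAD libraries 4 and 5. What the sets are is not in the labels. Within the first, Fabp1 was -2.31 (log2 change), Lpl 4.86, Cd36 3.44 and Fabp4 3.88, and these 4 were called, against 23% of all genes. In the second, the p-values were not used: it has 1 control library, its LIDPAD libraries 4 and 5 are the most alike pair (chi-square per gene 2.65), and 46.6% of all genes went under the threshold. The same changes there were -0.72, 3.42, 2.72 and 1.42. All 4 had the same direction in both sets and were nearer 0 in the second. Slc27a4 had 0.43 there, against -0.18 over all 9 libraries and 0.13 with the libraries rescaled to the same total. With the set as a term, 5 of the 10 genes were called, Slc27a2 among them (-0.66, adjusted p = 0.0304).

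**Figure D4:**
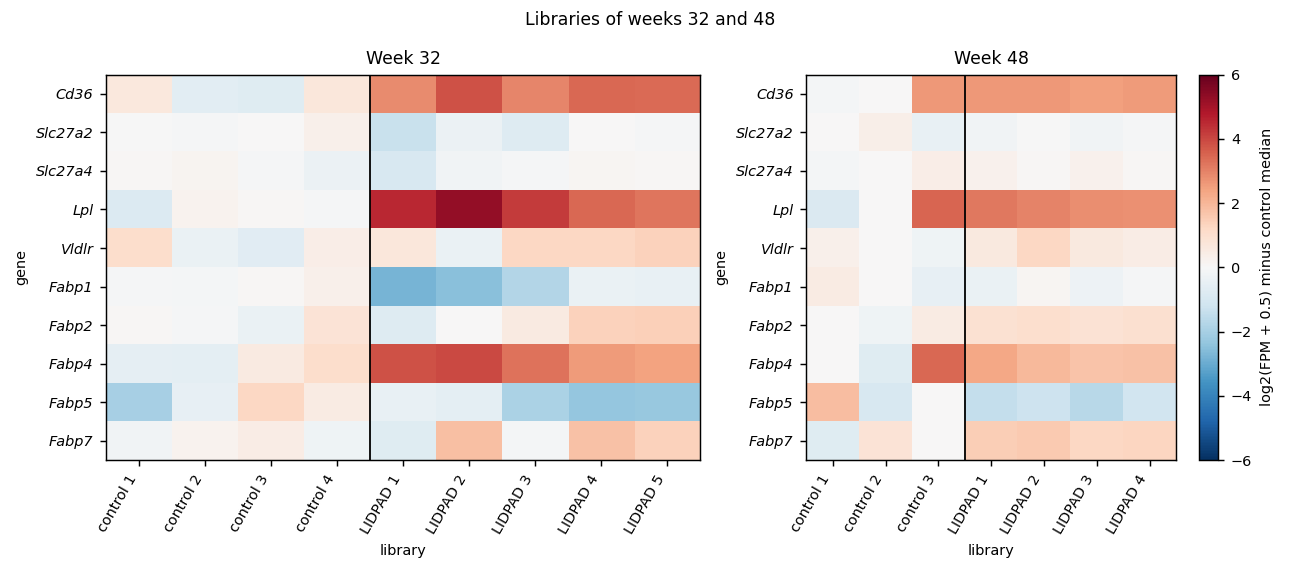
log2(FPM + 0.5) of each gene in each library of weeks 32 and 48, less the median of that week's controls; red is higher, blue lower. LIDPAD libraries 1 to 3 of week 32 are low for Fabp1 (322, 389.6 and 642 FPM), and control library 3 of week 48 is red for Cd36, Lpl and Fabp4.

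Libraries that stood apart or differed widely did so in other genes too. Control library 3 of week 48 had 9.92 FPM of Gpnmb, a marker of lipid-associated macrophages, against 0.163 and 0.479 in the other controls, and 15.2 of Vil1, an epithelial microvillus gene, against 0.118 and 0.256. Control library 2 of week 4 had 11.3 FPM of Gpnmb against 0.135 in control library 1. The latter had 7.30 FPM of summed muscle markers against 0.140 in the former. LIDPAD library 1 of week 32 had 0.716 FPM of the Kupffer cell gene Clec4f, against 53.4, 33.8, 76.0 and 70.1 in the other LIDPAD libraries. Without it Cd36, Lpl, Fabp4 and Fabp1 were still called at week 32, with log2 changes of 3.41, 4.20, 2.93 and -1.33. Its summed hepatocyte markers, 116608 FPM, were above the 87762 to 101960.0 of the controls, while the other LIDPAD libraries had 36533, 41090.0, 37150.0 and 34838. LIDPAD library 3 of week 32 stood apart in Vil1 and Fabp6, as given above, and without it Cd36, Lpl and Fabp4 were still called (3.38, 4.28 and 3.07). They were also called without LIDPAD library 4 (3.25, 4.47 and 3.25) or 5. LIDPAD library 2 of week 32 was the highest of its group in Cd36, Lpl and Fabp4. It had 360 FPM of Gpnmb, against 65.5, 22.9, 51.1 and 45.0 in the others. Its summed Kupffer cell markers were 1793 FPM, against 489 to 577. Cd36, Lpl and Fabp4 were called in all 9 fits that left out a library of week 32. Their log2 changes ran from 3.05 to 3.53, 4.01 to 4.52 and 2.85 to 3.40.

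Markers of macrophages and stellate cells were called higher from week 8. At weeks 1 and 4, 0 of the lipid-associated macrophage, Kupffer and stellate markers were called higher. Of 9 lipid-associated macrophage markers, 5 were tested at week 1 and 8 at week 4. The median log2 change was 0.76, 0.45 and 0.11 at week 1, when Cd36 was called (1.00). It was -0.57, -0.56 and -0.18 at week 4, when Cd36 was not called (1.07). The summed levels of these lists lay above the controls without overlap at week 1. They were 26.4 and 60.7 FPM against 24.7 and 22.6, 260 and 360 against 201 and 231, and 290 and 371 against 252 and 274. At week 4 the Kupffer sum lay below, at 309 and 242 against 345 and 428. Of all genes tested, 3.85%, 8.99%, 16.3%, 18% and 6.54% were called higher at weeks 8, 12, 16, 32 and 48. Those called lower were 12% at week 16 and 8.82% at week 32. Of 9 lipid-associated macrophage markers, 7 were called higher at week 8, 8 at week 12, 9 at week 16, 9 at week 32 and 7 at week 48. Their summed level at week 16 was 240.1 to 342 FPM on LIDPAD and 37.8 to 39.3 on control diet, and at week 48 375 to 423 and 39.5 to 257. Of 10 Kupffer cell markers, 7 were called higher at week 16 and 6 at week 32, and of 10 stellate cell markers 9 and 6. Of 9 hepatocyte markers, 7 were called lower at week 16 and 4 at week 32, with summed levels at week 16 of 38063 to 46354 FPM on LIDPAD and 74999 to 91834 on control diet; at week 32 LIDPAD library 1 went the other way. Of 10 endothelial markers, 2 were called higher and 1 lower at week 16 (6 and 0 with the libraries rescaled to the same total). Of the 10 adipocyte markers 5 were tested and 3 called higher at week 16, Cfd and the lipid droplet genes Cidea and Cidec. Of the 10 enterocyte markers 2 were tested and 1 called higher, Apoa4, an apolipoprotein that liver also makes. None of the 8 muscle markers passed the filter. The part of these markers in the Cd36, Lpl, Fabp4 and Fabp1 differences was not tested.

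A joint fit of the 14 groups tested whether the diet difference varied over the 7 weeks (F test, limma, adjusted over 16439 genes). The difference varied for 10.7% of all genes tested and for 3 of the 10 genes. These were Lpl (adjusted p = 0.0297), Slc27a2 (0.0297) and Cd36 (0.0499). Fabp1 (0.0692) and Fabp4 (0.0911) came next and did not pass. Over the 38 fits that each left out a library, Lpl passed in 33, Slc27a2 in 34 and Cd36 in 8. Lpl was lost without week 1 LIDPAD library 1, week 4 control library 2 or either LIDPAD library of week 4, or week 32 control library 1, with adjusted p up to 0.0756. Slc27a2 was lost without control or LIDPAD library 2 of week 4, or control library 4 or LIDPAD library 3 of week 32, with adjusted p up to 0.0653, and with the libraries rescaled to the same total (0.0738). Cd36 did not pass at a pseudocount of 0.1 (0.0504) or 1 (0.0504). For Slc27a2 the log2 change went from 0.85 at week 4 to -0.57 at week 32, and for Lpl from -0.16 to 4.30. Weeks and sets of libraries went together. Weeks 1 to 12 shared a spread of reads over the 4 columns found in no later week. Week 16 had that of the first week 32 set, and week 48 that of the second. Feeding time and these sets cannot be told apart in the F test.

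Other genes of the pathway were read from lists of what their proteins do. The counts of these lists, here and in the next paragraphs, are only descriptive. Of all genes tested, 16.3% were called higher and 12% lower at week 16, and 18% and 8.82% at week 32. Of the lipase partners, which modify lipoprotein lipase or bind it, Angptl4, a secreted inhibitor, was called in 4 weeks: higher at weeks 1, 12 and 16 (log2 change 0.94 ± 0.10, 1.09 ± 0.22 and 1.39 ± 0.34) and lower at week 32 (-1.30 ± 0.15, adjusted p = 2.20e-04). Angptl8, an insulin-responsive inhibitor, was lower at weeks 1, 12, 16 and 48, with a log2 change of -1.46 at week 12 (adjusted p = 4.12e-04). Of the 12 listed partners, 2 were called higher and 1 lower at week 16, and 0 and 5 of 11 tested at week 32. With the libraries rescaled to the same total these counts were 4 and 1, and 0 and 3, and Angptl4 and Angptl8 kept the calls named.

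Among 9 tested lipoprotein receptor genes of 10 listed, 1 was called higher and 4 lower at week 16, or 2 and 3 with the libraries rescaled. Lrpap1, a chaperone of lipoprotein receptors, was lower at weeks 12, 16 and 32 (log2 change -0.72 ± 0.15 at week 16, adjusted p = 0.00397), and Lsr, the lipolysis-stimulated receptor, at 12, 32 and 48. Rescaling ended the calls of Lrpap1 at 12 and 32 and of Lsr at all 3 weeks, without turning a direction. Msr1, a macrophage scavenger receptor, was higher at weeks 8, 16 and 32 (1.58 ± 0.21 at week 32, 3.78e-04). Of the other transport and activation genes, Slc27a1, the muscle and fat form of the transporter, was higher at weeks 16, 32 and 48 (1.81 ± 0.35 at week 32, 0.00348). Of 9 such genes tested at week 16, 2 were called higher and 3 lower. Among the acyl-CoA synthetase genes, Acsl3 was lower at weeks 1, 12, 16 and 48 and Acsl5 at 1, 12 and 16, with -0.92 and -0.57 at week 12; rescaling ended the calls of Acsl3 at weeks 1, 16 and 48 and of Acsl5 at 12 and 16. Of the other lipid-binding genes, Fabp3, Fabp6, Fabp9, Fabp12 and Pmp2 passed the filter in no week, Fabp6 standing high only in the 2 libraries named above.

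Pparg, the transcription factor that drives Cd36, Lpl and Fabp4 in other tissues, was called higher in 5 weeks, at 1.74 ± 0.16 (adjusted p = 0.0048) at week 8, 1.92 ± 0.15 (1.14e-05) at week 16 and 1.23 ± 0.19 (0.0135) at week 48. Hnf4a, the hepatocyte factor, was lower at weeks 16, 32 and 48 (-0.98 ± 0.14 at week 32, 5.44e-04), the last a call that rescaling ended. Of 12 listed regulators, 1 was called higher and 4 lower at week 32, or 1 and 1 with the libraries rescaled.

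For each gene the 3 genes most like it were those with the highest Pearson correlation of deviations from the weekly mean over the 38 libraries, among 11912 genes. The values include the diet difference and are descriptive. For Cd36 they were Osbpl3 (r = 0.98), Lgals1 (r = 0.97) and Ermp1 (r = 0.96); for Lpl Fam129a (r = 0.98), Sirpa (r = 0.98) and Itpripl2 (r = 0.98); for Vldlr Cyp2c38 (r = 0.85), Cyp2b9 (r = 0.76) and Rexo5 (r = 0.75). For Fabp1 they were Glyat (r = 0.92), Cat (r = 0.91) and Bbox1 (r = 0.91), for Fabp2 Aldh3a2 (r = 0.95), Acaa1a (r = 0.92) and Vnn1 (r = 0.92), for Fabp4 Cx3cl1 (r = 0.95), Mfge8 (r = 0.94) and Clca3a1 (r = 0.94) and for Fabp5 Rdh11 (r = 0.88), Pstpip2 (r = 0.88) and Mvd (r = 0.87). For Fabp7 they were Cd5l (r = 0.84), Clec1b (r = 0.83) and Gpt2 (r = 0.83), the second and the third for Slc27a2 were Ephx2 (r = 0.90) and Acad11 (r = 0.90) and for Slc27a4 Tgfbrap1 (r = 0.89), Rtf2 (r = 0.88) and Vapb (r = 0.88).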

How the data were processed

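Liver RNA of the 7 feeding durations was read from the authors' deposited signal tables, 1 per duration, whose unit is FPM, meaning each gene's count over the column's size factor per 1000000. The submitters' processing notes list GRCm38, HISAT2, featureCounts and DESeq2 with no role or version, and strand setting and annotation are not given in the sources used here. Values of every column came out whole (100%, tolerance 0.02) once divided by what 1 read is worth, and 4 columns in which 1 read is worth nearly 0.1 FPM were treated alike. Mean FPM of each block of 4 columns made 38 libraries, because columns within a block differed by a chi-square per gene of 2.04 to 2.16 and columns of different blocks by at least 2.65; a limit of 2.5 was set. This departs from the design, which named all 152 samples. Reads drawn independently would give a chi-square per gene of about 1, below the values within blocks. More genes had 2 recovered reads than 1, at 2688 and 466 in control column 1 of week 1. Whether reads were counted in pairs was not tested, and depths and count tests took them as they are.

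Separate limma 3.58.1 fits (under R 4.3.3) were made per week on log2(FPM + 0.5), moderated by empirical Bayes with a trend, for genes reaching 1 FPM in a number of libraries equal to the smaller group; p-values were two-sided and adjusted over all genes tested. A fold change on this scale understates the change of low genes. The change of the diet difference over weeks was tested by an F test in a joint fit of 14 groups. Count tests used edgeR 4.0.16 (quasi-likelihood) on the recovered reads and gave 265, 40, 670, 2073, 3948, 3862 and 1181 calls, in order of week. Fits were tested on simulated data. Library numbers did not pair the libraries (correlations of deviations from -0.135 to 0.119).

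The members, lists and named genes were chosen with earlier results of these data known. Named genes were the 10 genes, in each pathway list the gene of smallest adjusted p among those called in most weeks and any called in at least 3, the neighbours of Fabp4 and Fabp5, and the 3 genes most like each of the 10. Of the genes so named, 3 are not reported here. Symbols matched 54409 of 54532 identifiers. Lengths and positions came from GENCODE for GRCm38, and 7 of the 10 genes matched RefSeq promoters. Alternatives were another pseudocount (0.1 or 1), another filter (5 FPM or none), rescaled totals, a replicate block, edgeR, the joint fit, each library left out and, chosen after seeing the data, the week 32 sets apart. Plots used Python 3.11.15 and matplotlib 3.10.9.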

Additional observations from a re-analysis of the deposited data

Results flagged for a closer look

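Over 30 group values of 4 or 5 libraries, 2 held a library far from the others, where chance alone gives about 1 in 20. Vldlr stood at 11.3 FPM in LIDPAD library 2 of week 48, above 6.36 to 6.88 in the other 3. Slc27a2 stood at 663 FPM in control library 4 of week 32, above 516 to 539 in the other 3. The diet difference varied between weeks for Lpl (adjusted p = 0.0297, F test of the limma joint fit), Slc27a2 (0.0297) and Cd36 (0.0499). Over the 38 fits that each left out a library, Lpl passed in 33, Slc27a2 in 34 and Cd36 in 8. With the libraries rescaled to the same total, Lpl and Cd36 passed this F test and Slc27a2 did not (0.0738).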

How the results depend on the processing

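Over the 10 genes and 7 weeks, a pseudocount of 1 changed no call and 1 of 0.1 changed 2. Replacing the filter by none changed 5 calls and edgeR 3, besides the reversal below. A filter of 5 FPM left 7 to 9 of the 10 genes tested in a week, changed 1 call among them and left Fabp7 untested at weeks 16 and 48, where it had been called. The joint fit of 14 groups changed 18 calls, the replicate block 5 and rescaling 7, besides its 3 reversals; the causes were not tested.

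In weeks 1, 4, 8 and 12 the joint fit called 0, 0, 1 and 2 of the 10 genes, against 2, 2, 5 and 7 in fits of each week alone. Over all genes it called 10, 27 and 241 at weeks 1, 8 and 12, and 7214 and 2288 at weeks 32 and 48, against 250, 743, 2078, 3810 and 1462. With the replicate block, 4 of the 10 genes and 383 of all genes were called at week 1, 368 genes at week 4, and 0 of the 10 and 16 of all genes at week 48; the library numbers share only a number. Without a filter 106, 478 and 1344 genes were called at weeks 4, 8 and 12. Rescaling to the same total called 25 genes at week 4 and 3069 at week 48, and 8 of the 10 genes at week 8. At week 48, a pseudocount of 0.1, no filter, a filter of 5 FPM and edgeR each called 1 of the 10. Within the second week 32 set, 10 of the 10 and 6904 genes went under the threshold, which supports nothing: it has 1 control, and its LIDPAD pair is nearly alike.

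Rescaling moved calls, as higher and lower over all genes, from 511 and 232 to 869 and 159 at week 8, from 1226 and 852 to 1890 and 396 at week 12, and from 968 and 494 to 2879 and 190 at week 48. It turned week 48 Fabp1 to 0.11 and Slc27a2 to 0.19, and week 32 Slc27a4 to 0.13, which was 0.43 within the second set. EdgeR gave -0.14 for Fabp4 at week 48.

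Leaving out each library in turn, the calls among the 10 genes ran from 1 to 6 at week 1, 1 to 4 at week 4, 3 to 7 at week 8, 5 to 8 at week 12, 7 to 8 at week 16, 3 to 4 at week 32 and 0 to 6 at week 48. Those over all genes ran from 33 to 1123, 39 to 855, 82 to 1665, 853 to 3104, 2810 to 4058, 2988 to 3629 and 134 to 5714. Genes whose diet difference changed between weeks ran from 0 to 5 of the 10 and from 990 to 2815 of all genes. Log2 changes that crossed 0 ran from -1.44 to 1.11 (Lpl, week 4), -0.094 to 0.28 (Vldlr, week 1), -0.30 to 0.078, -0.17 to 0.73, -0.073 to 0.21 and -0.43 to 0.081 (Fabp1, weeks 1, 4, 12 and 48), -0.43 to 0.52 (Fabp7, week 4), -0.30 to 0.094 (Slc27a2, week 48), -0.27 to 0.014 and -0.040 to 0.22 (Slc27a4, weeks 32 and 48). With 2 libraries a group in weeks 1 to 12, the test leans on variation pooled over genes.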

Other observations

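The mean share of Fabp5 in the FABP message was lower on LIDPAD in every week but week 32. Fabp5 took 3.46 ± 0.689% (SD, n = 2) of the summed FPM per kilobase of the 5 FABP genes in control libraries at week 1. On LIDPAD it took 0.366 ± 0.105% (SD, n = 2). At week 12 it took 4.00 ± 0.724% and 0.231 ± 0.068% (SD, n = 2 each), and at week 16 1.12 ± 0.13% and 0.315 ± 0.0394% (SD, n = 3 each). At week 32 it took 2.03 ± 1.54% (SD, n = 4) and 3.26 ± 3.40% (SD, n = 5), the other direction within a wide spread, and Fabp4 took 0.0742 ± 0.0397% and 3.11 ± 2.78%. Fabp2 took 1.49 ± 0.0753% and 4.60 ± 0.347% at week 16 (SD, n = 3 each), on control diet and LIDPAD. These shares were not tested and rest on the levels already given.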
